A study of Mus musculus with 2 samples.

Results

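The genes described here carry glucose into a cell, split it to pyruvate, turn pyruvate into lactate and move lactate out. With them are the kinases that slow the oxidation of pyruvate in mitochondria and the hypoxia-inducible factor subunit Hif1a. The genes were taken as a fixed list of 34 symbols, and all 34 were found among the 55536 gene rows of the deposited tables. Their RNA was measured in stimulated mouse macrophages, in a single group of 2 libraries.

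The cells were primary macrophages grown from the bone marrow of C57BL/6J mice and stimulated at 100 ng/mL for 300 min. The agent is Lipid A in one label field and lipoprotein A in others, so it is called the stimulus below. Sex and age were not collected. Polyadenylated RNA from whole-cell extracts was sequenced, and the libraries come from separate biosamples that share a donor record. Whether the cells were grown in separate cultures is not stated, so the spread between the libraries may be partly technical. No unstimulated cells were analysed here, and no value below is a response to the stimulus. With 2 libraries of 1 group there is no comparison to test, and no p-value is given. Levels are given per library, with the mean and SD (n = 2) where they are summarised.

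Glycolysis converts glucose to pyruvate in the cytosol and yields ATP without oxygen. Lactate dehydrogenase then reduces pyruvate to lactate, which restores the NAD+ that the glyceraldehyde phosphate dehydrogenase step consumes, and monocarboxylate transporters carry lactate out with a proton. Macrophages that meet bacterial products are known to raise this flux, and Hif1a, a transcription factor subunit held low by oxygen-dependent hydroxylation, is known to drive many of these genes. Several steps have more than 1 isozyme, each from its own gene and with its own tissue pattern.

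Replicate 1 held 38078399 expected counts and replicate 2 held 63705317. Expected counts are the estimated reads of each gene, and TPM, a unit of transcript abundance, divides them by transcript length and scales each library to the same total. Of the macrophage markers Adgre1, Csf1r, Cd68, Itgam, Fcgr1, Mertk and Lyz2, 7 of 7 reached 1 TPM in both libraries, with a summed level of 14750 TPM in replicate 1 and 20700 TPM in replicate 2. The 9 neutrophil markers summed to 456 and 16.9 TPM in replicates 1 and 2, most of it S100a9 (316 and 10.2 TPM) and S100a8 (127 and 5.63 TPM), with 2 of 9 at 1 TPM in both and Ly6g at 0 in both. The 3 platelet markers summed to 755 and 105 TPM, nearly all of it Pf4 (753 and 105 TPM). No marker of B cells, NK cells, erythroid cells, fibroblasts, muscle or neurons reached 1 TPM in both libraries, and of the T cell markers only Cd4 did, with Cd3e at or below 0.03 TPM and Cd3g at 0.

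The macrophages expressed a complete route from glucose to exported lactate. Of the 34 genes, 28 reached 1 TPM in both libraries (82.4%), 19 reached 10 TPM and 9 reached 100 TPM. Over all gene rows 18.0% reached 1 TPM in both libraries, and over nuclear protein-coding genes 42.4% did. The median of the 34 mean levels was 20.7 TPM. Over the 28 genes at 1 TPM in both libraries alone it was 88.5 TPM, against 14.4 TPM over all genes at that level. Together the 34 genes held 0.485% of the expected counts of gene rows in replicate 1 and 0.487% in replicate 2. Slc2a3 and Pdk4 stayed below 1 TPM in both libraries, and Pfkfb1, Pfkfb2, Eno3 and Pdk2 passed it in 1 library each.

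**Figure D1:**
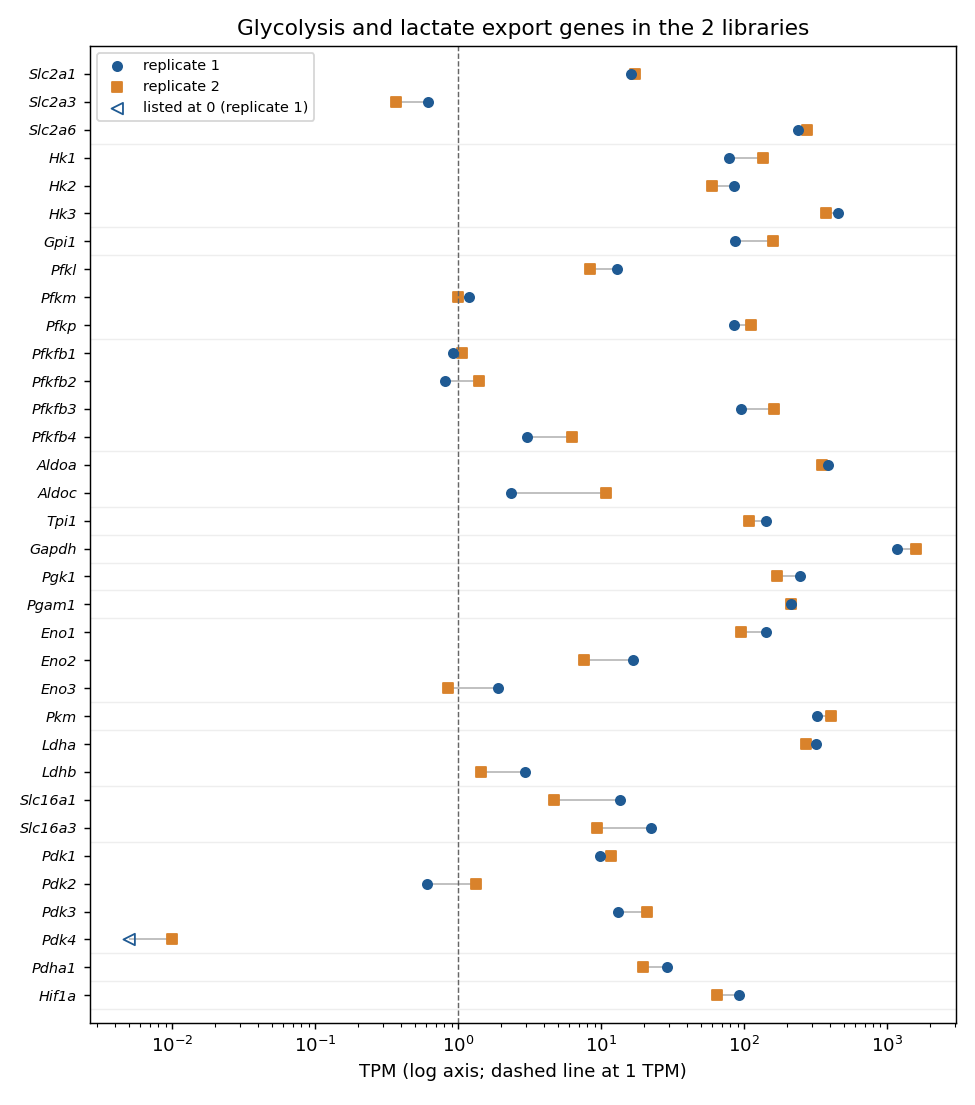
Level of each of the 34 genes in TPM on a log axis, ordered by step from glucose transport to Hif1a, with circles for replicate 1 and squares for replicate 2. Gapdh was highest at 1173 and 1599 TPM, and the leading genes from hexokinase to lactate dehydrogenase lay at 85.3 TPM (Pfkp, replicate 1) or higher, while Slc2a3 and Pdk4 lay left of the dashed line at 1 TPM in both.

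Summed over isozymes, the steps differed widely in level. Gapdh alone reached 1173 and 1599 TPM (mean 1386 ± 301 TPM; SD, n = 2) and was 72nd among nuclear protein-coding genes. Next by mean were the hexokinases at 595 TPM, the aldolases at 374 TPM, pyruvate kinase (Pkm) at 364 TPM and the lactate dehydrogenases at 299.0 TPM. Glucose transporters (274 TPM), Pgam1 (212 TPM) and Pgk1 (208 TPM) formed a middle group. By mean the phosphofructokinases came lowest of the 10 enzyme steps between glucose and pyruvate at 111 TPM. Pfkfb enzymes (136 TPM), enolases (133 TPM), Tpi1 (125 TPM) and Gpi1 (124 TPM) were close above them. These last neighbours differed by less than their spread, as Gpi1 alone ran from 86.7 to 160 TPM. In neither library alone were the phosphofructokinases lowest of the enzyme steps. Gpi1 was below them in replicate 1 (86.7 against 99.4 TPM). In replicate 2 the enolases (104 TPM) and Tpi1 (107 TPM) were below their 122 TPM. Lowest of all were the pyruvate dehydrogenase kinases at 28.8 TPM, the monocarboxylate transporters at 25.0 TPM and the dehydrogenase subunit Pdha1 at 24.4 TPM.

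In 9 of 9 steps with several isozymes the same gene held the largest share of TPM in both libraries. The glucose transporter with the most RNA was Slc2a6 (ENSMUSG00000036067.12, chromosome 2, 27021363 to 27027998, minus strand). It encodes GLUT6, a family member known from lysosomal membranes. It was measured at 237 TPM in replicate 1 and at 276 TPM in replicate 2, or 93.4% and 94.0% of the 3 listed transporters. The widespread plasma membrane transporter Slc2a1 (GLUT1) stood at 16.2 and 17.3 TPM, lower than Slc2a6 by a log2 ratio of 3.86 ± 0.09 (SD, n = 2, on TPM + 1). Slc2a3 (GLUT3), a high-affinity transporter typical of neurons, was listed at 0.62 and 0.37 TPM from 57 and 38 counts. GLUT1 RNA was thus present at a moderate level, and most RNA of this step came from the GLUT6 gene.

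Hexokinases trap glucose by phosphorylation. Hk3 (ENSMUSG00000025877.14, chromosome 13, 55005985 to 55021385, minus strand), a hexokinase gene typical of myeloid cells, reached 456 and 376 TPM and held 73.6% and 65.9% of the step. Hk1, the ubiquitous form that binds mitochondria, followed at 78.8 and 135 TPM. Hk2, the inducible mitochondria-bound form of muscle, fat and many tumours, was at 85.2 and 59.4 TPM. By these values the order of Hk1 and Hk2 differed between the libraries, with Hk3 above both. In the second quantification, made from the reads against a transcript index, Hk1 was higher in both libraries (85.2 and 174 TPM, against 51.6 and 45.9 TPM for Hk2). Over transcripts of 1000 bases or more it was higher in both as well (69.1 and 118 TPM, against 51.2 and 47.2 TPM), since the 594-base processed transcript Hk2-202 is then left out. For Hk2 the TPM difference came with a shift between transcripts, since its scaled counts were within 0.01 on the log2 scale. Gpi1, which isomerises the product to fructose 6-phosphate, was at 86.7 and 160 TPM.

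Phosphofructokinase is the main control point of the pathway. Pfkp, the platelet-type subunit, was at 85.3 and 112 TPM and held 85.8% and 92.3% of the step. Its neighbour Pitrm1 lies on the opposite strand and shares 748 exonic bases with it, and with the strand of counting not stated, reads there cannot be told apart. Pitrm1 had 28.0 and 25.8 TPM. The liver-type subunit Pfkl stood at 12.9 and 8.37 TPM and the muscle-type Pfkm at 1.20 and 1.00 TPM. Pfkp thus exceeded Pfkl by a log2 ratio of 3.12 ± 0.68 (SD, n = 2).

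The Pfkfb enzymes make and degrade fructose 2,6-bisphosphate, the strongest activator of phosphofructokinase. Pfkfb3 (ENSMUSG00000026773.19, chromosome 2, 11471433 to 11554077, minus strand), whose product favours synthesis, reached 95.5 and 162 TPM, which was 95.3% and 94.9% of the family. Pfkfb4 was next at 3.03 and 6.29 TPM. Pfkfb1, the liver and muscle form, was at 0.92 and 1.07 TPM, and Pfkfb2, known from heart, at 0.81 and 1.41 TPM. The share of Pfkfb3 moved less between the libraries than its level did.

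In the lower part of the pathway 1 isozyme supplied most of the RNA at each step. Aldolase, which splits fructose 1,6-bisphosphate, was represented by Aldoa at 385 and 350 TPM, 99.4% and 97.0% of the step. Aldoc, the brain form, was at 2.35 and 10.8 TPM. The single-gene enzymes that follow were Tpi1, which interconverts the triose phosphates, at 142 and 107 TPM, Pgk1, which makes the first ATP, at 245 and 170 TPM, and the mutase Pgam1 at 212 and 212 TPM. Among the enolases, Eno1 reached 143 and 95.9 TPM (88.4% and 91.9%), Eno2, the neuronal form, 16.8 and 7.62 TPM, and Eno3, the muscle form, 1.91 and 0.85 TPM. Eno1 thus exceeded Eno2 by a log2 ratio of 3.25 ± 0.34 (SD, n = 2).

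**Figure D2:**
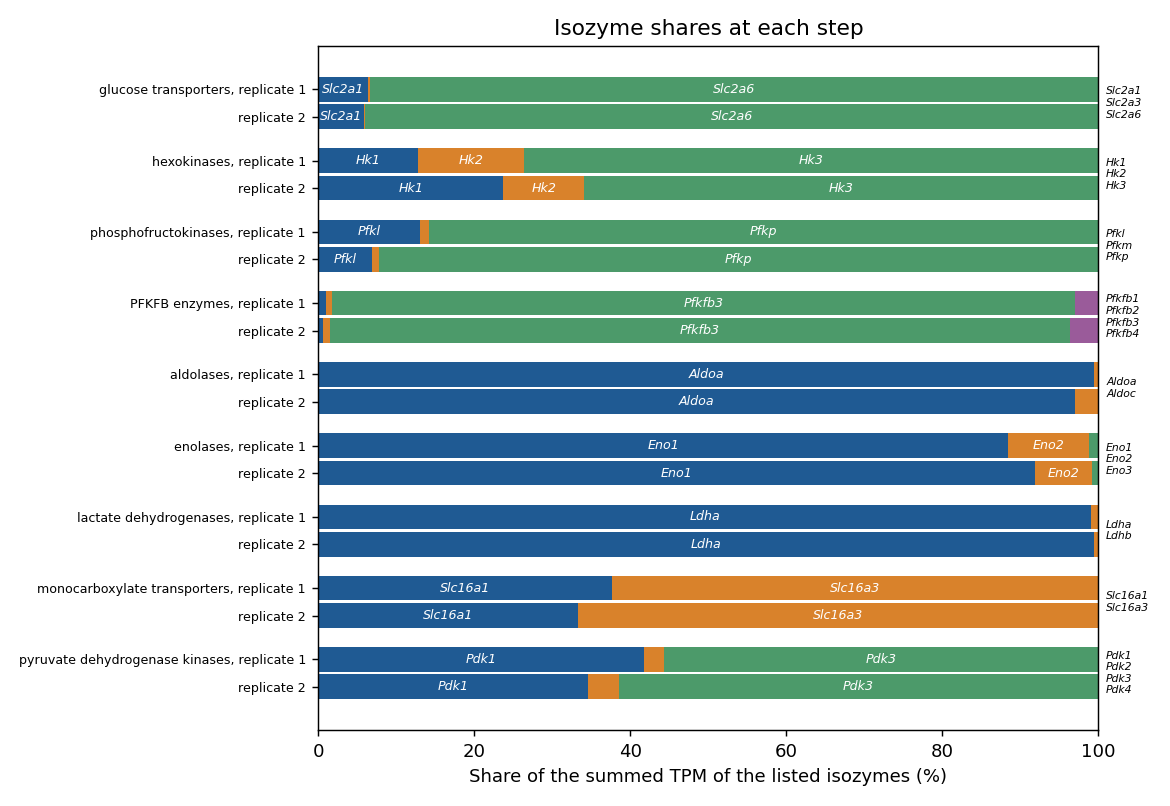
Share of each isozyme in the summed TPM of its step, as a stacked bar for each library, in percent, with the names at the right giving the order of the segments from left to right. Slc2a6, Hk3, Pfkp, Pfkfb3, Aldoa, Eno1, Ldha, Slc16a3 and Pdk3 held the widest segment of their step in both libraries.

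Pyruvate kinase, which makes pyruvate and the second ATP, came from Pkm (ENSMUSG00000032294.17, chromosome 9, 59656368 to 59679375, plus strand) at 325 and 403 TPM, while the red cell and liver gene Pklr was listed at 0 in both libraries. Pkm makes its 2 main products by choosing 1 of 2 mutually exclusive exons. PKM1 keeps the upstream exon and is constitutively active. PKM2 keeps the downstream exon, can be switched between a highly active tetramer and less active forms, and is the form known from macrophages and proliferating cells. In the annotation Pkm-202 holds the upstream exon at chr9:59675029-59675195 and Pkm-201 the downstream exon at chr9:59675568-59675734 (GRCm38, plus strand). Each is the 9th of 11 exons and 167 bases long. The reference sequences (GENCODE M21 transcripts) are printed 5′ to 3′, and capitals mark the 64 positions at which they differ, which shows how much sequence can assign a read to either form.
Pkm-202 exon (PKM1): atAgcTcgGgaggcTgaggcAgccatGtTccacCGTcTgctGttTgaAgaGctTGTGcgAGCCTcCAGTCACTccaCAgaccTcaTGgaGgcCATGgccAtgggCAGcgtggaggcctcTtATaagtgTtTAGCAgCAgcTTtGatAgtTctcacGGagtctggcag
Pkm-201 exon (PKM2): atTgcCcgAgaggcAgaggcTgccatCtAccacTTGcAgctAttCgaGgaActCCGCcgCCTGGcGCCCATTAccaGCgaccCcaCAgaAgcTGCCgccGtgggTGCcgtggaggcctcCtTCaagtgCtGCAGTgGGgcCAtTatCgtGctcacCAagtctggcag

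Pkm-201, the PKM2 transcript, was at 249 and 246 TPM and held 76.7% and 60.9% of the gene. Transcripts with the PKM1 exon were at 68.5 and 142 TPM, or 21.1% and 35.3%. The second quantification gave 75.1% and 51.7% for PKM2 and 20.9% and 43.7% for PKM1. The PKM2 transcript was thus the larger in both libraries by both methods, with nearly the same level in each by the first, and the higher Pkm TPM of replicate 2 lay in the PKM1 transcripts. Pkm-201 and Pkm-202 also differ at their outer ends, as Pkm-201 starts at 59656368 and ends at 59679375 and Pkm-202 starts at 59656573 and ends at 59679189. Reads at those ends enter the estimate as well as reads over the exons printed above, and their separate part was not tested.

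Lactate dehydrogenase was almost wholly Ldha (ENSMUSG00000063229.15, chromosome 7, 46841475 to 46855627, plus strand), whose subunit favours the making of lactate. Its level was 320 and 273 TPM, or 99.1% and 99.5% of the step. Ldhb, whose subunit is typical of heart, was at 2.92 and 1.45 TPM from 75 and 63 counts. The log2 ratio of Ldha over Ldhb was 6.58 ± 0.32 (SD, n = 2). By this mean it was the widest gap of the 9 isozyme pairs, though in replicate 1 alone Aldoa over Aldoc was wider (6.85 against 6.36).

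By the summed TPM of the listed genes, lactate export was the step with the least RNA of the route (36.0 and 14.0 TPM). It also had no settled order of isozymes. The glucose transporter sum was mostly Slc2a6. Slc2a1 by itself, at 16.2 and 17.3 TPM, was below the export pair in replicate 1 and above it in replicate 2. Slc16a3 encodes MCT4, the export form of glycolytic cells, and stood at 22.4 and 9.34 TPM. Slc16a1 encodes MCT1, which moves lactate in either direction, and stood at 13.6 and 4.67 TPM. By TPM, Slc16a3 held 62.3% and 66.7% of the pair. By expected counts it held 36.5% and 48.3%, since Slc16a1 RNA is 4426 bases long and much of Slc16a3 was assigned to the 974-base transcript Slc16a3-207. With transcripts of 1000 bases or more alone, an alternative chosen after the data were seen, Slc16a1 led in replicate 1 (13.6 against 11.9 TPM) and Slc16a3 in replicate 2 (7.63 against 4.67 TPM). Slc16a7 (MCT2), not among the 34 genes, was at 9.71 and 10.1 TPM and so exceeded both in replicate 2. The chaperone Bsg, which brings MCT1 and MCT4 to the plasma membrane, was far higher at 210 and 265 TPM.

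Pyruvate dehydrogenase kinases phosphorylate the E1 alpha subunit encoded by Pdha1 and so slow the oxidation of pyruvate in mitochondria. Pdk3 was at 13.1 and 20.97 TPM and Pdk1 at 9.78 and 11.8 TPM, a log2 ratio of 0.58 ± 0.28 (SD, n = 2) in favour of Pdk3. On expected counts that ratio was -0.01, with Pdk1 ahead in replicate 1 and Pdk3 in replicate 2. By the second quantification it was 0.1 on TPM, with Pdk3 at 12.4 and 19.2 TPM and Pdk1 at 12.3 and 16.7 TPM. No order of these kinases thus held across both units. Pdk2 was at 0.61 and 1.33 TPM. Pdk4, the kinase induced by fasting, had 0 counts in replicate 1, where 3 counts would correspond to 0.0985 TPM, and 1 count in replicate 2. Their substrate gene Pdha1 stood at 29.1 and 19.8 TPM.

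Hif1a (ENSMUSG00000021109.13, chromosome 12, 73901375 to 73947530, plus strand) was at 91.9 and 64.3 TPM. It was assigned to transcripts from 2 annotated starts, and the downstream one took the larger share in both libraries by both methods. Hif1a-201, which starts at 73907904, held 58.2% and 69.0% of the gene, and Hif1a-202, which starts upstream at 73901375, held 41.4% and 31.0%. The second quantification gave 64.6% and 71.0% for Hif1a-201. Of the hydroxylases that mark the protein for destruction, Egln2 was at 21.3 and 19.9 TPM and Egln1 at 5.99 and 5.44 TPM, while Egln3 was at or below 0.08 TPM. RNA levels do not give the level of the HIF protein, which is set largely after translation.

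HIF binds a core of letters ACGTG or GCGTG. The 250 bases before a RefSeq start of each gene were searched for both, on both strands (CACGT and CACGC on the other). Overlapping matches were counted. RefSeq (GRCm38.p6) gave windows for 33 of the 34 genes, and the one nearest the start of the leading transcript was used. The 2 starts can differ, and the windows of Pkm, Pfkfb3 and Tpi1 reach 208, 148 and 138 bases into the leading transcript. That of Eno1 ends 244 bases before it. No window was given for Slc2a3. A match was present for 28 of the 33 genes (84.8%), for 38.6% of all 32851 windows and for 56.7% of the windows of protein-coding genes at 1 TPM in both libraries. ACGTG or its complement alone was present for 15 of 33 (45.5%), for 16.6% of all windows and for 22.2% of those of the expressed genes. The comparison shares count every window of a gene, while each listed gene gave 1 chosen window, so the shares are not like for like. Binding was not measured here, and a match is a description of letters. The windows of 3 leading genes are printed 5′ to 3′ on the strand of the gene, with matches in capitals, to show leading genes with several matches and with a single one. They are Ldha at chr7:46845554-46845803 (plus strand), Slc2a6 at chr2:27027999-27028248 (minus strand) and Hk3 at chr13:55021386-55021635 (minus strand).
Ldha: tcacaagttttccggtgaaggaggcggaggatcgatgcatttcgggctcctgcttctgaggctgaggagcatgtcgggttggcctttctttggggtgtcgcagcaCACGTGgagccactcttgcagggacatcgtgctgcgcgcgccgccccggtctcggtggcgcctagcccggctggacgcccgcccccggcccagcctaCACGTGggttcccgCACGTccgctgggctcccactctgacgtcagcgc
Slc2a6: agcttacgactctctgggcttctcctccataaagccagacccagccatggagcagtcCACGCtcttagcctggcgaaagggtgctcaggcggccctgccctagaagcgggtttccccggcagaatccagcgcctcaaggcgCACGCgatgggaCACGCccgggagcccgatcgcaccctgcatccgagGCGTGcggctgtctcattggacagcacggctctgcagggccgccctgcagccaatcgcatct
Hk3: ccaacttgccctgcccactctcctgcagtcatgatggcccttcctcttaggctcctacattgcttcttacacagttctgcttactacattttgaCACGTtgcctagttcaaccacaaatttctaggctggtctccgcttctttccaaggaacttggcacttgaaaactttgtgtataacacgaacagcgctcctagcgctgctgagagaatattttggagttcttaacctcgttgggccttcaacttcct

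The Ldha window had 5 matches, all of the ACGTG kind, of which 4 form the pair of CACGTG palindromes that count once on each strand. The Slc2a6 window had 4, all of the GCGTG kind, and the Hk3 window had 1. Those of Gpi1, Pfkfb1, Tpi1, Eno2 and Pkm had none, which says only that these letters are not in these windows.

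The libraries differed in some of the 34 genes by more than counting error. Ratios were taken from expected counts scaled by TMM, a method that sets the bulk of genes equal, over 12226 genes with enough counts, and are replicate 2 over replicate 1. A gene was called at 1.5-fold, with no p-value, since 1 library on each side has no replicate check. Of the 33 genes of the list kept, 11 passed, 6 of them higher in replicate 2 and 5 higher in replicate 1. Over all 12226 genes 35.8% passed, 16.7% higher in replicate 2 and 19.1% higher in replicate 1, so the share of the list was near that of all genes. The median log2 ratio of the 33 genes was 0.01, against -0.01 over all genes.

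Aldoc had the largest ratio. It had 111 counts in replicate 1 and 873 in replicate 2, a log2 ratio of 2.40 with a 95% counting interval of 2.13 to 2.71. Hk1 followed at 6710 and 18944 counts (log2 ratio 0.94) and Pfkfb3 at 10174 and 27616 counts (0.88), and Pdk3 was at 602 and 1613 counts (0.86). Pdk2 (26 and 76 counts, 0.94) and Pfkfb2 (57 and 138 counts, 0.70) were also above the fold, but their counting intervals of 0.33 to 1.69 and 0.26 to 1.19 reached below it.

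In the other direction, both lactate transporters were higher in replicate 1. Slc16a1 had 1410 counts in replicate 1 and 803 in the deeper replicate 2, a log2 ratio of -1.37 with a counting interval of -1.50 to -1.25. Slc16a3 had 809 and 749 counts (-0.67, interval -0.82 to -0.53) and Eno2 had 689 and 635 (-0.68, interval -0.84 to -0.52), and both intervals reach inside the fold. Ldhb (75 and 63 counts, -0.79) and Slc2a3 (57 and 38 counts, -1.10) rest on few counts, with intervals of -1.32 to -0.31 and -1.78 to -0.53 that also reach inside it. The sums of the neutrophil and platelet markers given above were also higher in replicate 1, mostly through S100a8, S100a9 and Pf4. Ly6g was at 0 in both. The part of these markers' cells in the differences was not tested. In bulk RNA, fewer cells of a type and less RNA per cell cannot be told apart. The other 22 genes were within 1.5-fold, among them Hk2 (0.01), Hk3 (-0.04), Pdk1 (-0.06), Aldoa (0.11) and Pgam1 (0.19). Gpi1 at 0.56 lay just inside the fold and Eno2 and Slc16a3 just outside.

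**Figure D3:**
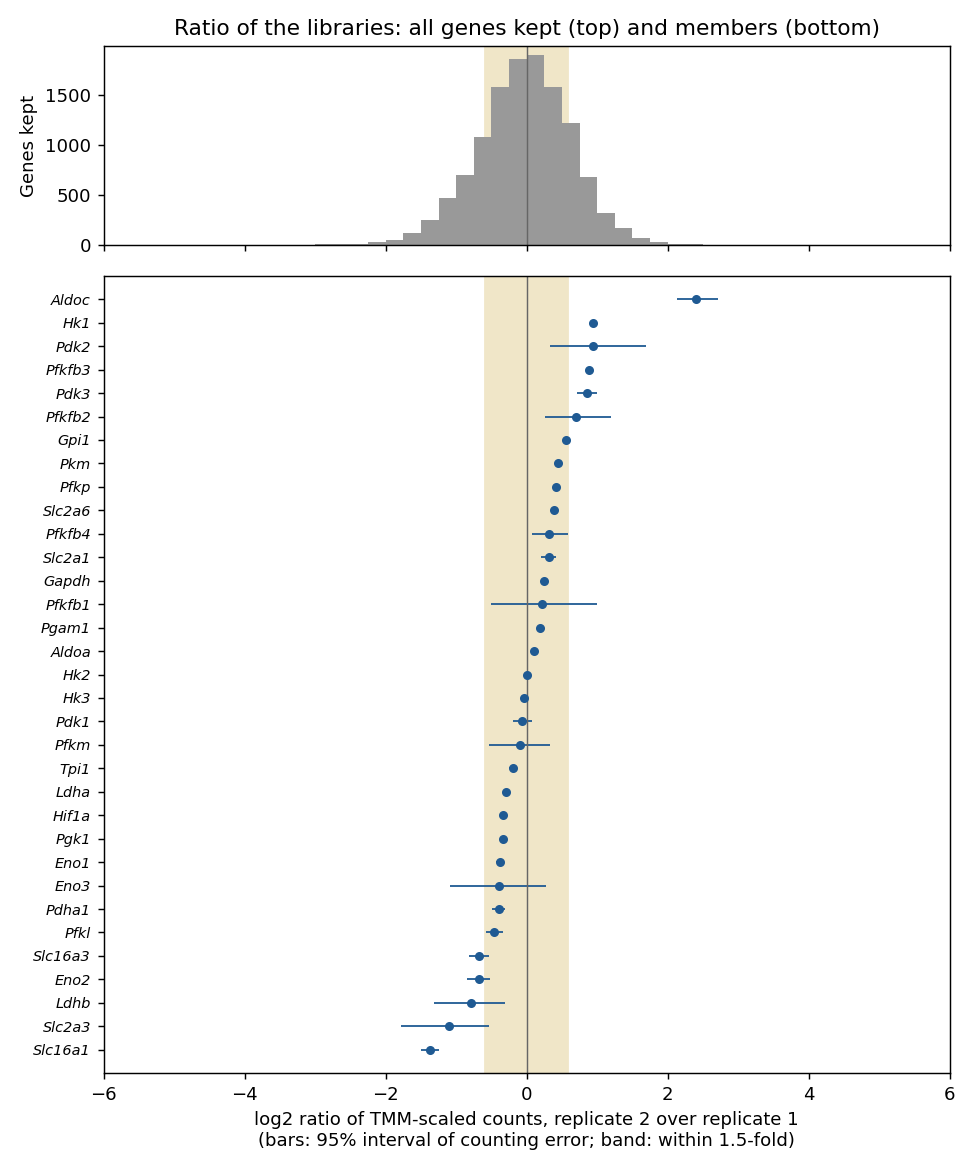
Ratio of replicate 2 to replicate 1 in TMM-scaled counts, on a log2 axis, as a histogram of the 12226 genes kept (top) and for the 33 genes of the list kept (bottom, bars give the 95% interval of counting error). The shaded band is within 1.5-fold, and 11 genes lie outside it, from Slc16a1 at -1.37 to Aldoc at 2.40.

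Of the 33 genes with 2 or more transcripts, 25 had the same leading transcript in both libraries, and 23 had in the second quantification. For 21 it was the same in both libraries and both methods, among them Slc2a6-201, Hk3-201, Aldoa-201, Gapdh-203, Pgk1-201, Eno1-202, Pkm-201, Ldha-202 and Hif1a-201. Abundance in short transcripts moved TPM for several genes. Ldha-206, a 645-base model with no known 3′ end that starts at a downstream first exon (46847505), was at 0 TPM in replicate 1 and 62.5 TPM in replicate 2, or 22.9% of the gene. The second quantification gave it 0% and 48.7%. The longer Ldha-202 was at 318 TPM in replicate 1 and 209 TPM in replicate 2.

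Gapdh showed the same kind of difference on a larger scale. The 1420-base coding transcript Gapdh-203 was at 777 and 697 TPM, 66.2% and 43.6% of the gene. The 483-base processed transcript Gapdh-208 held 31.4% and 38.0%, and the 565-base retained intron Gapdh-206 held 0.1% and 18.0%. The second quantification gave Gapdh-203 93.7% and 47.2%, Gapdh-208 4.9% and 34.9%, and Gapdh-206 0% and 5.3%. Over transcripts of 1000 bases or more, Gapdh was at 802 and 702 TPM. Its full TPM was thus higher in replicate 2 and its long-transcript TPM higher in replicate 1. The scaled counts differed by a log2 ratio of 0.25.

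Gpi1 also had more of its TPM in short models in replicate 2, with Gpi1-201 (2884 bases) at 59.3% and 35.0% and Gpi1-205 (581 bases) at 7.6% and 23.5%. Its TPM over transcripts of 1000 bases or more was 52.4 and 56.6. For Hk2 the difference ran the other way, since the 594-base processed transcript Hk2-202 held 39.8% in replicate 1 and 20.3% in replicate 2 and 0% by the second method in both. Slc16a3 led with Slc16a3-207 (45.7% and 18.3%) in replicate 1 and with Slc16a3-201 (29.0% and 41.0%) in replicate 2. Over the list, the share of TPM in transcripts under 1000 bases was higher in replicate 2 for 13 genes and higher in replicate 1 for 13, so no single direction held.

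Other genes led differently between libraries or methods, or with a transcript that codes for no protein. Pfkfb4-203, a coding transcript, led in replicate 1 (38.8%) and the retained intron Pfkfb4-204 in replicate 2 (46.3%). For Eno2 the retained intron Eno2-203 led in replicate 1 (20.3%) and the coding Eno2-202 in replicate 2 (34.6%), while the second method put the retained intron Eno2-211 first in replicate 2 (23.3%). For Pdk1 the coding Pdk1-201 led in replicate 1 (47.2%) and the processed transcript Pdk1-206 in replicate 2 (42.4%), and the second method put Pdk1-208 first in replicate 1 (42.7%). Some of these transcripts rest on few reads, as Pdk1-206 with 18.7 and 109 counts and Pfkfb4-204 with 1.39 and 23.6.

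For Pfkfb3 and Hk1 the methods also disagreed, at high counts. Pfkfb3-220, which has a distant upstream start (11554077), led by the first method at 41.8% and 50.4% but held 3.9% and 1.9% by the second. The second put first Pfkfb3-206, which starts at 11502101, at 42.7% and 45.6%. The start of Pfkfb3 is therefore not settled by these tables, while its summed level was (95.5 against 98.4 TPM in replicate 1, 162 against 163 TPM in replicate 2). Hk1-202 led by the first method (61.2% and 56.0%), and the second gave it 35.8% and 22.8% and put Hk1-201 first in replicate 2 (58.95 TPM). For Gpi1 the second method put Gpi1-205 first in replicate 2 (28.7%), and for Pdk2 it put the processed transcript Pdk2-204 first there (51.7%). Pfkm, Pfkfb1 and Eno3, all near 1 TPM, led with different coding transcripts in the libraries, and Pdk4 had no transcript above 0 in replicate 1. At the gene level, 32 of the 34 genes were within 1.5-fold between the methods in both libraries on TPM + 1, and 28 on plain TPM, where Hk2, Pfkm, Pfkfb2, Eno2, Eno3 and Pdk4 were outside in at least 1 library.

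**Figure D4:**
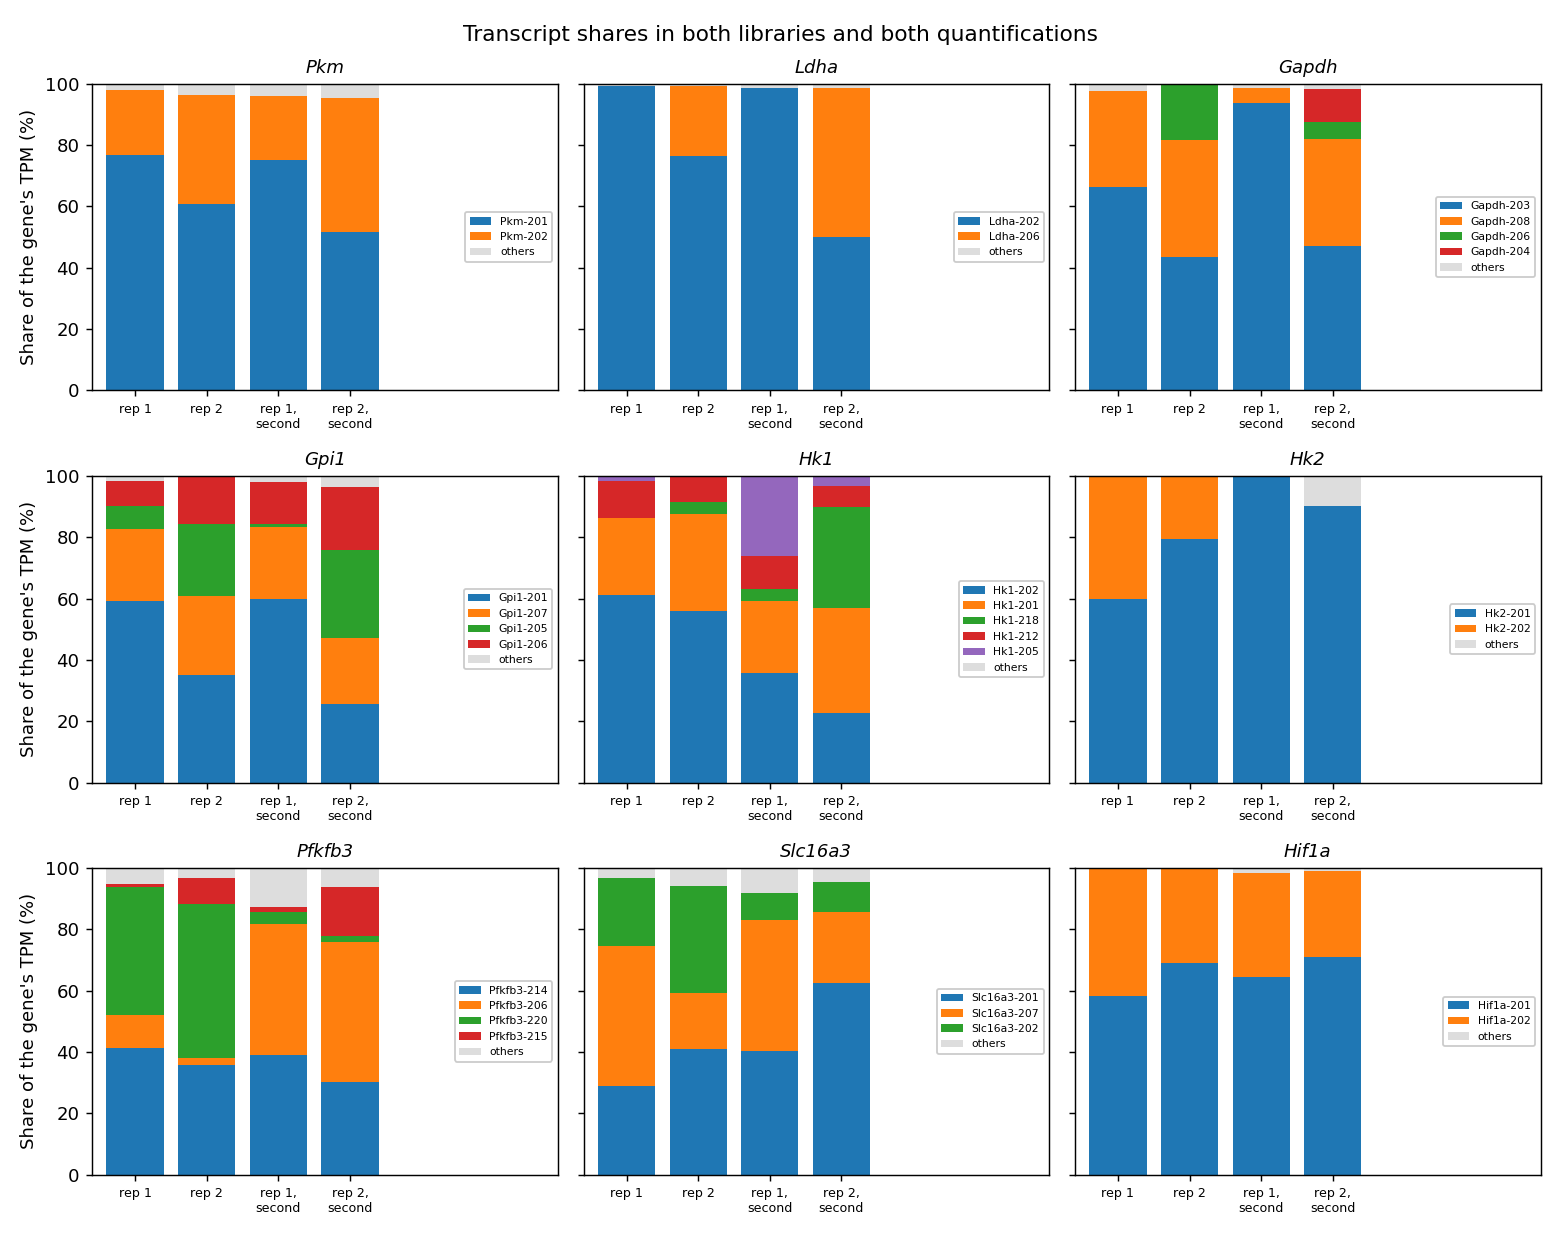
Share of each gene's TPM in its transcripts, in percent, for 9 genes, with a bar for each library by the first and by the second quantification. Pkm-201 and Hif1a-201 were the widest segment of their gene in all 4 bars, while Ldha-206 appears in replicate 2 alone and Pfkfb3-220 is wide by the first method alone.

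Some of these genes have near-identical copies in the genome, which can take or give reads. At 90% identity over 300 bases or more of the leading transcript, 177 other gene rows matched Gapdh, most of them pseudogenes, and they held reads equal to 7.58% of the Gapdh count in replicate 1 and 3.96% in replicate 2. For Pgk1 the copies held 9.46% and 6.75% of its count. Pgk1-rs7, a processed pseudogene, had 457 and 4.03 counts by the first method and 23.6 and 34.1 by the second, so its reads are uncertain. For Eno1 the share was 2.57% and 2.36%, including Eno1b at 2.11 and 2.10 TPM, which the second method put at 0.18 and 0 TPM. For Aldoa, Ldha, Pgam1, Pkm and Tpi1 it was at most 0.26% in either library. A second gene row with the symbol Aldoa had 1 count in replicate 1 and 0 in replicate 2 and was not used.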

How the data were processed

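The gene list, the other lists and the rule for named genes were chosen with earlier results of these data known. Transcripts and genes were quantified by the authors on mm10 with GENCODE M21, per the file headers and notes; the software is not given in the sources used here. Expected counts deposited by the authors are estimated reads of each gene or transcript, not normalized, and were rounded to whole numbers for ratios. TPM values deposited by the authors are scaled to transcript length and to 1000000 per library. The percent column deposited in the transcript tables is the share of a gene's TPM in each transcript, recomputed here from TPM. Rows that name no gene (0.132% and 0.0882% of counts) were left out.

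Ratios used filterByExpr and TMM of edgeR 4.0.16 (R 4.3.3), with a prior count of 2; the edgeR model tests were not run, as 1 group allows none. Isozyme ratios are on log2(TPM + 1). Intervals are exact binomial 95% intervals and cover counting error only. Simulated data with 200 changed genes among 12628 gave back 100.0% of them, with 24 calls among 10380 unchanged genes at 100 counts or more. The simulation held counting error alone, and every planted change was larger than 1.5-fold. It therefore checks the computation only and gives no error rate for calls between the real libraries. Alternatives were another quantification, unit, scaling (DESeq2 1.42.0), filter, prior, pseudocount and set of transcripts. Another took out of the ratios a trend fitted over GC content and transcript length. Named genes are all 34 and, of other lists, the 2 highest and the lowest by mean TPM, plus Eno1b, Bsg and Tigar; other genes named singly (G6pdx, Slc2a9, Mpc2, Egln1, Egln3, Pklr, Pck1, Pck2, Fbp1, Pitrm1, Pgk1-rs7 and markers) were chosen after their values were seen.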

Additional observations from a re-analysis of the deposited data

How the results depend on the processing

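The numbers of genes at 1 TPM in both libraries, of steps with a shared leading isozyme and of shared leading transcripts kept within 1.5 times under each alternative run. The count of steps asks only whether the libraries share a leader. On expected counts Slc16a1 led its step in both libraries instead of Slc16a3, and Pdk1 led in replicate 1 instead of Pdk3. The median level of 20.7 TPM was 25.0 TPM when scaled over nuclear protein-coding genes, 88.5 TPM over the genes at 1 TPM alone, and 20.4 to 25.8 TPM with 1 library left out. On expected counts, which are not scaled to length, the log2 ratio of Slc16a3 over Slc16a1 was -0.45 instead of 0.78 and that of Pdk3 over Pdk1 was -0.01 instead of 0.58. Of the other ratios, those over the next isozyme of Slc2a6 (3.29), Pfkfb3 (5.97) and Ldha (7.36) moved by more than 1 SD on counts. Those of Slc2a6 (3.75), Pfkfb3 (5.39), Eno1 (3.94) and Pdk3 (1.61) did over protein-coding transcripts alone. By the second quantification those of Pfkfb3 (4.36), Eno1 (2.78) and Pdk3 (0.1) did. All of these kept the same direction. The 11 genes at 1.5-fold were 3 at 2-fold. The share of all genes at 2-fold is not given here, so that count alone does not set the list apart. The median log2 ratio of the 33 genes, 0.01, was 0.03 with DESeq2 size factors and 0.03 with the second quantification's counts, and turned to -0.17 on total counts (all genes -0.19) and -0.14 on TPM (all genes -0.10), so it followed the scaling. The split over all genes was 1283 higher in replicate 2 and 3304 higher in replicate 1 on total counts, against 2039 and 2335 with TMM. With the GC and length trend removed it was 1822 and 1805 of 12217 genes, with 6 of the list in each direction. Hk1 then moved from 0.94 to 0.66, Pfkfb3 from 0.88 to 0.59 and Hif1a from -0.33 to 0.06. Pfkl moved from -0.46 to -0.71 and so passed 1.5-fold. No paired analysis was possible because there is 1 group, and leaving out a library leaves no ratio between libraries. Genes near 1 TPM rest on few counts (26 to 138 for Pfkfb1, Pfkfb2, Pfkm, Eno3, Pdk2), which limits their shares and transcripts.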

Other observations

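The neighbouring pathways were read from lists of 80 further genes, of which 51 reached 1 TPM in both libraries. All 8 genes of the pentose phosphate pathway, which makes NADPH and ribose from glucose 6-phosphate, did so. Pgd was highest at 194 and 304 TPM in replicates 1 and 2, followed by Taldo1 at 186 and 118 TPM, with Rpia lowest at 6.27 and 2.80 TPM. G6pdx, the entry enzyme, was at 79.5 and 133 TPM. By contrast, of 6 gluconeogenesis genes only G6pc3, the widely expressed glucose 6-phosphatase, reached 1 TPM in both (9.31 and 9.97 TPM). Fbp1, Fbp2, Pck1 and G6pc were listed at 0 in both, and Pck2 was at 0.99 and 0.54 TPM. Of 22 other isozymes of the glycolytic families, 4 reached 1 TPM in both, namely Slc16a7 (9.71 and 10.1 TPM), Slc2a8 (2.87 and 3.84 TPM), Slc2a9 (3.42 and 3.23 TPM) and Eno1b, whose reads are uncertain.

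For the entry of pyruvate into mitochondria and its use there, 9 of 10 genes reached 1 TPM in both libraries. Mpc1, a subunit of the pyruvate carrier, was at 273 and 201.3 TPM, whereas its partner Mpc2 was at 27.9 and 10.5 TPM. Dld, a subunit shared by several dehydrogenases, was at 80.5 and 38.8 TPM, and Pcx, which carboxylates pyruvate, was lowest at 0.41 and 0.16 TPM. Of 9 HIF targets outside glycolysis, 7 reached 1 TPM in both, with the collagen hydroxylase P4ha1 highest at 107 and 117 TPM, Ndrg1 next at 33.98 and 49.5 TPM and Ankrd37 lowest at 0.07 and 0 TPM. In the HIF system 6 of 8 did, led by Arnt, the partner of Hif1a, at 19.1 and 24.5 TPM and Egln2, with Hif3a lowest at 0.01 and 0 TPM. Of 9 glycogen genes 8 did, led by Ugp2 at 63.4 and 25.4 TPM and Pygb at 24.1 and 47.3 TPM, with the muscle phosphorylase Pygm lowest at 0.27 and 0.11 TPM. All 8 bypass and accessory genes did, with Bsg highest, Emb, the chaperone of MCT2, next at 53.6 and 81.6 TPM, Tigar, a fructose bisphosphatase, at 4.68 and 4.77 TPM, and Slc37a4 lowest at 2.19 and 3.35 TPM. Of the 54 further genes with enough counts, 7 were at 1.5-fold higher in replicate 2 and 7 higher in replicate 1, against 16.7% and 19.1% of all genes.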
